A study of Mus musculus with 10 samples.

Results

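The 50 genes described here carry cells through mitosis, and their RNA was measured in the marrow of mice that drank either regular water or water with α-ketoglutarate (α-KG). They were taken by symbol from a list of kinases, cyclins, spindle and kinetochore proteins, kinesins and condensin subunits. All 50 were among the 55367 genes of the count table, and all 50 passed the filter on low counts, as did 15126 genes in all. The choice of genes did not use their values, but the list was drawn up with earlier results of these data known.

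The water group held 5 libraries of bone marrow cells, labelled BMMC, from mice on regular water, and the α-KG group held 5 from mice with 1% α-KG in the water. α-KG is a metabolite of the citric acid cycle, and enzymes that demethylate histones and DNA use it up. The series title places the mice in work on myeloproliferative neoplasms, in which myeloid cells are made in excess. Strain, genotype, age, sex and duration are all not given in the sources used here, and no label ties a library to an animal. The p-values therefore measure only how these libraries spread, which may be technical. The libraries are called water 1 to 5 and α-KG 1 to 5, and equal numbers pair nothing.

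Mitosis starts when the kinase Cdk1, bound to a cyclin, is switched on, and it ends when the anaphase-promoting complex (APC/C) has the cyclins and the inhibitor of sister separation destroyed. In between, condensins compact the chromosomes, kinetochores attach them to spindle microtubules, and a checkpoint holds anaphase back until every kinetochore is attached. Most of these genes are transcribed mainly in G2 and M phase, through promoter elements bound by MuvB complexes with B-Myb or FoxM1 and by the CCAAT-binding factor NF-Y. In marrow, the cells that divide most are precursors of red cells and granulocytes, and the mature cells they give rise to have left the cycle.

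Library totals ran from 14291364 to 22490118 estimated counts. The 50 genes took 0.634% to 1.04% of the counts in the water libraries and 0.233% to 0.569% in the α-KG libraries. Values in CPM are counts relative to library size, on the usual CPM scale and after TMM scaling, which corrects for differences in library composition. The defining markers of marrow were present, with 15 of 15 erythroid, 8 of 8 granulocyte precursor and 10 of 10 mature neutrophil markers at 1 CPM or more in every library. The small RNAs Rn7s1 and Rn7s2 took 7.56% to 24.2% of the counts in water and 24.0% to 31.0% in α-KG. A fit without them and the ribosomal locus CT010467.1, with TMM factors taken anew, gave the 50 genes the same median log2 fold change, -0.71. In that setting every α-KG library lay below every water library for 22 of the 50 (2.39% of all genes), against 15 (2.01%) with them. The part of the small RNAs in the result was not tested beyond these values.

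Many promoters of these genes hold the same short elements, shown here as a property that the choice of genes did not use. RefSeq windows of 300 bases, from 250 before the transcription start to 50 after it (build GRCm38.p6), were found for 41 of the 50 genes. None was found for Ccna2, Tpx2, Aurkb, Kif20a, Spc24, Cdc25c, Smc4, Foxm1 and Incenp. The cell cycle homology region (CHR), searched as TTTGAA on both strands, was present in 31 of 41 windows (75.6%) and in 18.1% of the windows of all 27025 genes. It lay within 50 bases of the start in 28 of 41 (68.3%), against 4.92% of all genes. The NF-Y box, searched as CCAAT on both strands, was present in 29 of 41 (70.7%) against 37.9%, and both were present in 26 of 41 (63.4%) against 7.12%. In 23 of these 26 the last CHR followed the last NF-Y box in the direction of transcription (88.5%), against 43.1% of all windows with both. The median log2 fold change was -0.74 over the 31 genes with a CHR and -0.69 over the 10 without, and -0.75 over the 19 with 2 or more NF-Y boxes and -0.70 over the other 22. A match is a string of letters and not a shown binding site.

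Stretches of 160 bases, from 130 before the start to 29 after it, are printed 5′ to 3′ on the strand of the gene for 6 members, with CHR and NF-Y matches in capitals. Ccnb2 (chr9:70421525-70421684, minus strand) and Cdk1 (chr10:69352883-69353042, minus) encode a cyclin and its kinase, Ttk (chr9:83834559-83834718, plus) a checkpoint kinase and Hmmr (chr11:40733408-40733567, minus) a spindle protein. Ect2 (chr3:27153849-27154008, minus) and Knstrn (chr2:118813873-118814032, plus) are the members that passed the test over all genes.
Ccnb2: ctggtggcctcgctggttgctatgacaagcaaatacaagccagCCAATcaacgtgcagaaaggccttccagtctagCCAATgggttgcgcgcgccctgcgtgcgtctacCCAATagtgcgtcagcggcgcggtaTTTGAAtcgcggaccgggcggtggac
Cdk1: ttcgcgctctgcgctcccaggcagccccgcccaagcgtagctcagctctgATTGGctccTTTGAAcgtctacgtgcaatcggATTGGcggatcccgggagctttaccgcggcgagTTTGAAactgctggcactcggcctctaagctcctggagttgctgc
Ttk: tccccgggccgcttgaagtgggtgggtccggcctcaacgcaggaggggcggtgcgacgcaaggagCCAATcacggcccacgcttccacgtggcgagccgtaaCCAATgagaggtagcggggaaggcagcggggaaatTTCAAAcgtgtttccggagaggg
Hmmr: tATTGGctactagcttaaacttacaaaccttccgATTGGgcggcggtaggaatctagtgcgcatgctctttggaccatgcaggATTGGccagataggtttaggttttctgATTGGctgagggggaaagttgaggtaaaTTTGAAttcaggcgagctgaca
Ect2: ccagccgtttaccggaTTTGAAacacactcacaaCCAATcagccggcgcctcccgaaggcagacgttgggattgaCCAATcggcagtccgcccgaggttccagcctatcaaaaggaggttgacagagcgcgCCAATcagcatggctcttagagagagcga
Knstrn: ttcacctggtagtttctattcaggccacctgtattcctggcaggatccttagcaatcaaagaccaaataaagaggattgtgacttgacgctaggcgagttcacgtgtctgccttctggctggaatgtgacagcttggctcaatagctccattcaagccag
Counted from 0 at the start, Ccnb2 held NF-Y boxes at -87, -54 and -21 and a CHR at 4 in this stretch. Hmmr held NF-Y boxes at -129, -96, -47 and -20 and a CHR at 8, and Ttk held boxes at -65 and -28 and a CHR at 7. Cdk1 held boxes at -80 and -48 and CHRs at -71 and -15. In Ect2 a CHR at -114 preceded the boxes at -96, -55 and 1, and a second CHR at 39 lay past the printed end. Neither string was found in the Knstrn window, which says only that these letters are not in it.

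**Figure D1:**
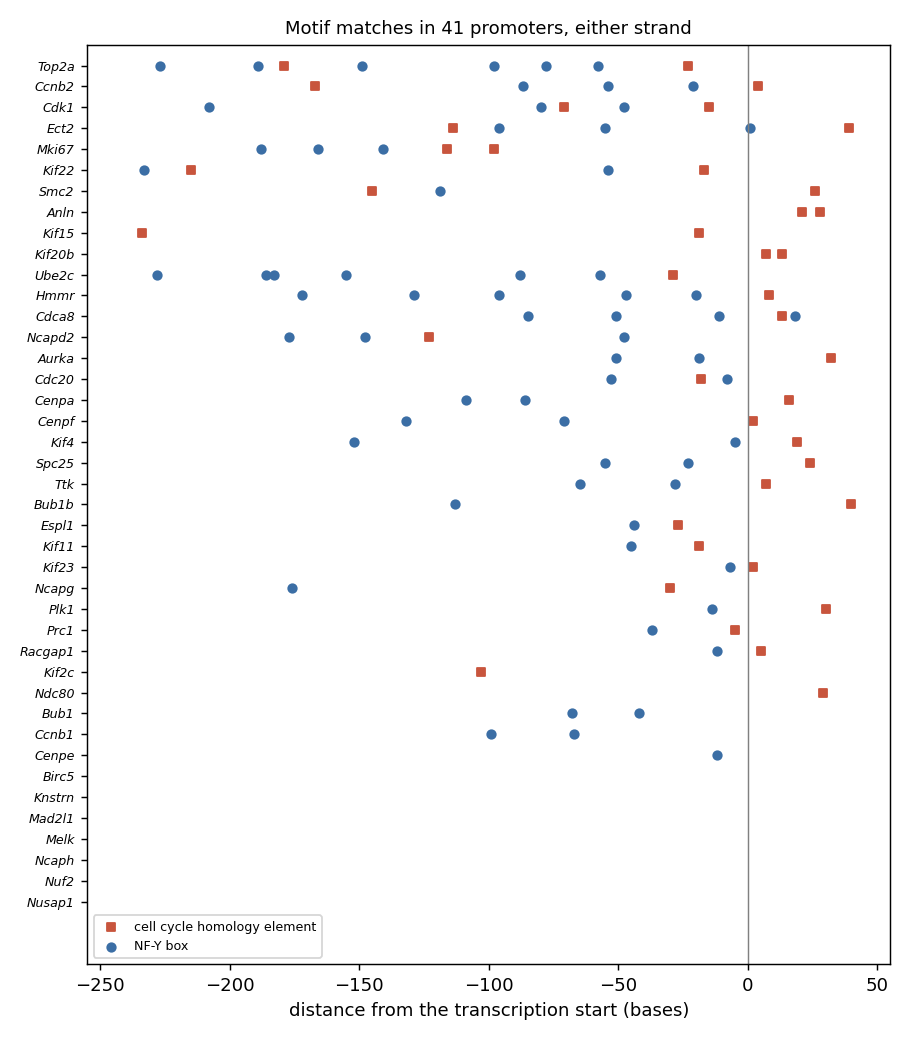
Distance in bases from the transcription start of each CHR match (red squares) and each NF-Y box match (blue circles) in the 300-base windows of 41 genes, one row per gene. Most CHR matches sit close to the start, with the NF-Y boxes upstream of them, and 7 genes have no match to either.

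All 50 genes were lower in α-KG than in water by their fitted fold changes. Log2 fold changes ran from -1.02 for Ccnb2 to -0.42 for Foxm1, with a median of -0.71, where the median over all 15126 genes was 0.02 and 48.3% of genes lay below 0. After Benjamini-Hochberg adjustment over all genes (edgeR, threshold 0.05), 2 of the 50 fell, the kinetochore gene Knstrn and the cytokinesis gene Ect2, and 0 rose, where 0.344% of all genes were called lower and 2.39% higher. At an unadjusted p under 0.05, 49 of the 50 were lower and 0 higher, against 11.5% and 16.3% of all genes. The 5 α-KG libraries lay below all 5 water libraries for 15 of the 50, against 2.01% of all genes. That number became 39 with library totals (5.32% of all genes), 42 without water 3 (6.31%) and 36 without α-KG 2 (6.97%). DESeq2 called 34 of the 50 lower and limma voom 1, Knstrn, where they called 4.31% and 0.278% of all genes lower. With library totals in place of TMM factors 44 of the 50 were called, and without a filter on low counts 8, where 6.89% and 0.479% of all genes were called lower. In bulk RNA, fewer dividing cells and less RNA of these genes per cell cannot be told apart.

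**Figure D2:**
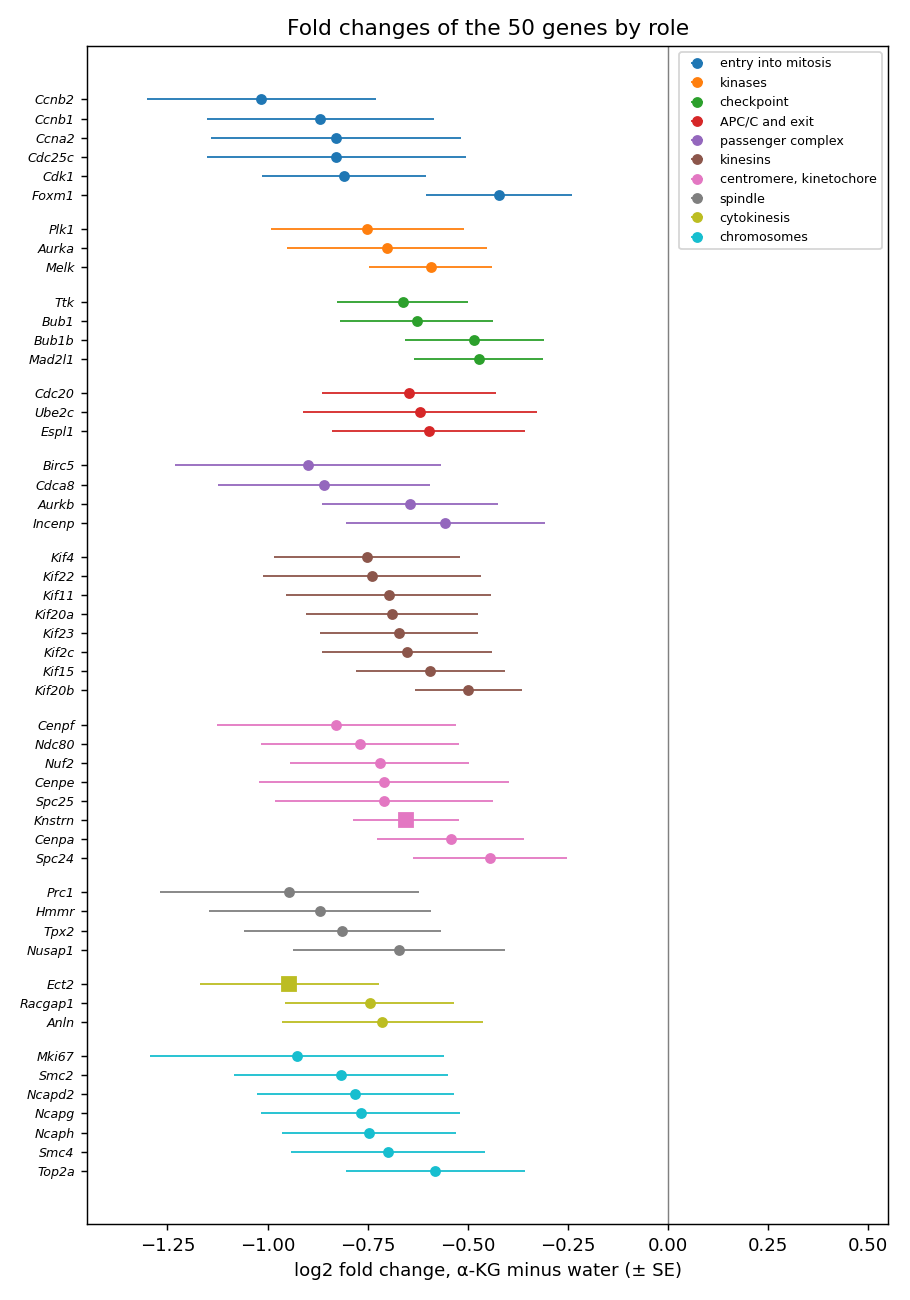
Log2 fold change of each of the 50 genes, α-KG minus water, with its standard error, grouped by role. Knstrn and Ect2, drawn as large squares, passed an adjusted p of 0.05, and all 50 lie between -1.02 and -0.42.

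The count of members called rested on single libraries. Leaving out α-KG 2 gave 42 (6.97% of all genes), leaving out water 3 gave 6 (0.63%), and leaving out α-KG 1 or α-KG 5 gave 1 each (0.137% and 0.103%). The edgeR count was 0 when water 1, water 2, water 4 or α-KG 4 was dropped (0% of all genes), and also for water 5 (0.11%) and α-KG 3 (0.0194%), while 38 to 46 members stood at an unadjusted p under 0.05. No member turned above 0 in any of the 10 fits with a library left out, and the median stayed between -0.88 and -0.56.

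Within each group the 50 genes followed the same libraries. The median member stood at 101%, 102%, 85.5%, 103% and 109% of the water mean in water 1 to 5, and at 33.1%, 87.5%, 41.2%, 63.3% and 75.2% in α-KG 1 to 5. Water 3 was the lowest water library for 43 of the 50. In the α-KG group, α-KG 1 and α-KG 3 were the lowest pair for all 50, and α-KG 2 was the highest for 41. Below the lowest water library lay 50 members in α-KG 1, 49 in α-KG 3, 48 in α-KG 4, 37 in α-KG 5 and 16 in α-KG 2. The SD was larger in α-KG than in water for 48 of the 50. For 22 members, α-KG 2 was the single α-KG library that was not below every water library.

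**Figure D3:**
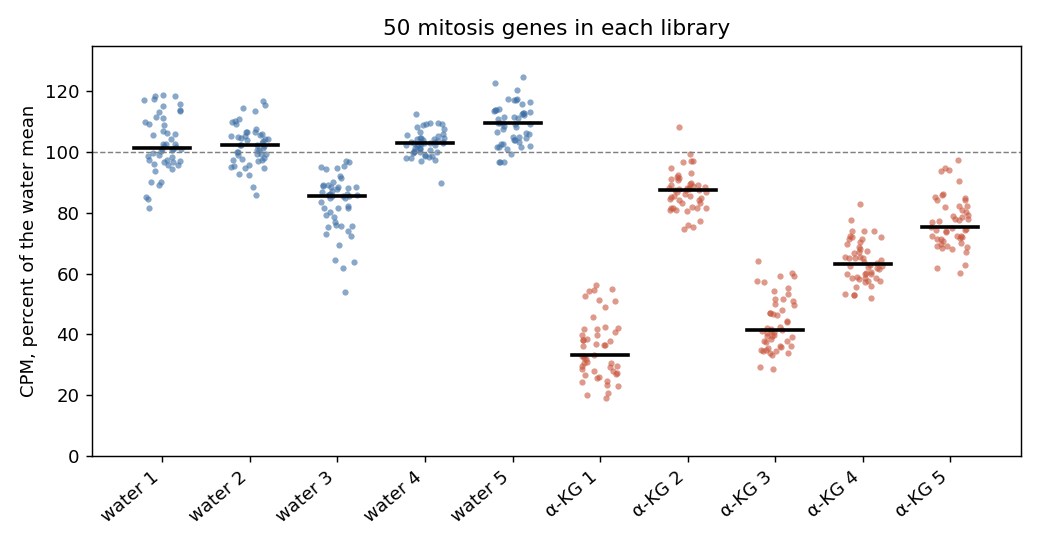
CPM of the 50 genes in each library as a percent of the mean of the 5 water libraries, one point per gene, with the median as a black bar and a dashed line at 100. Medians in α-KG run from 33.1% in α-KG 1 to 87.5% in α-KG 2, which lies above the 85.5% of water 3.

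The first 6 members bring cells into mitosis, and none passed the test over all genes. Cdk1, the kinase whose activity defines M phase, was at 55.99, 52.7, 44.8, 53.95 and 54.5 CPM in water 1 to 5 and at 19.02, 45.97, 22.02, 30.1 and 32.4 CPM in α-KG 1 to 5 (log2 fold change -0.81 ± 0.20 SE, adjusted p = 0.0555). Only α-KG 2, above water 3, made the groups overlap. Ccnb2, a B-type cyclin that activates Cdk1, was at 77.4, 66.2, 42.03, 74.7 and 79.9 CPM in water 1 to 5 and at 15.9, 51.6, 24.1, 36.02 and 40.9 CPM in α-KG 1 to 5 (log2 fold change -1.02 ± 0.29 SE, adjusted p = 0.0690). It had the lowest fold change of the 50, and again α-KG 2 was above water 3. Ccnb1, the main mitotic cyclin, was at 66.2, 60.8, 45.97, 62.02 and 68.6 CPM in water 1 to 5 and at 15.5, 51.8, 20.8, 34.97 and 43.2 CPM in α-KG 1 to 5 (log2 fold change -0.87 ± 0.28 SE, adjusted p = 0.0928). Water 3 and α-KG 2 were the samples that overlapped. Ccna2, the cyclin of S and G2 phase, read 198, 169.6, 110.2, 175 and 200.5 CPM in water and 41.1, 153, 61.5, 110.1 and 115 in α-KG (log2 fold change -0.83 ± 0.31 SE, adjusted p = 0.120). Here water 3 lay level with α-KG 4 and below α-KG 2 and α-KG 5, and the exons of Ccna2 overlap those of Exosc9 on the other strand. Foxm1, a transcription factor that drives G2 and M phase genes, read 80.5, 77.6, 72.2, 84.99 and 91.7 CPM in water and 45.9, 78.9, 41.9, 60.3 and 77.1 in α-KG (log2 fold change -0.42 ± 0.18 SE, adjusted p = 0.157). Its fold change was the closest to 0 of the 50, with α-KG 2 and α-KG 5 inside the water range. Cdc25c, the phosphatase that switches Cdk1 on, stood at a log2 fold change of -0.83 (adjusted p = 0.131), with groups that did not overlap.

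Of the 3 other mitotic kinases, Plk1, which acts at centrosomes, kinetochores and the midzone, was at 63.8, 50.99, 37.4, 53.7 and 63.1 CPM in water 1 to 5 and at 17.7, 46.8, 25.3, 29.8 and 40.4 CPM in α-KG 1 to 5 (log2 fold change -0.75 ± 0.24 SE, adjusted p = 0.0893). Water 3 was lower than α-KG 2 and α-KG 5. For Aurka, the Aurora kinase of the spindle poles, the values were 52.4, 47.2, 33.8, 47.8 and 50.3 CPM in water and 14.8, 40.5, 19.6, 29.6 and 38.1 CPM in α-KG (log2 fold change -0.70 ± 0.25 SE, adjusted p = 0.109). The same 3 libraries overlapped. Melk, a kinase of dividing cells, was at 15.6, 14.99, 13.1, 15.5 and 17.2 CPM in water and 8.28, 12.99, 7.62, 10.3 and 11.5 in α-KG (log2 fold change -0.59 ± 0.15 SE, adjusted p = 0.0584). Its groups did not overlap, although α-KG 2 came within 1 CPM of water 3.

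Over the 4 spindle checkpoint genes the median on the log2 scale was -0.56, and whether roles differed was not tested. Ttk, the kinase (Mps1) that starts the checkpoint signal, was at 12.9, 9.93, 10.3, 12.7 and 12.01 CPM in water 1 to 5 and at 5.29, 9.48, 6.14, 7.79 and 7.92 CPM in α-KG 1 to 5 (log2 fold change -0.66 ± 0.16 SE, adjusted p = 0.0528). No α-KG library reached a water value. Bub1, a kinase that brings checkpoint proteins to the kinetochore, was at 27.8, 21.99, 17.9, 25.03 and 26.02 CPM in water 1 to 5 and at 9.92, 19.4, 13.6, 13.97 and 20.01 CPM in α-KG 1 to 5 (log2 fold change -0.63 ± 0.19 SE, adjusted p = 0.0804). Water 3 lay under α-KG 2 and α-KG 5. Mad2l1, which encodes the Mad2 protein that holds Cdc20 inactive, read 34.6, 30.2, 26.6, 32.9 and 34.7 CPM in water and 16.3, 31.6, 20.4, 23.00 and 23.5 in α-KG (log2 fold change -0.47 ± 0.16 SE, adjusted p = 0.100). Only α-KG 2 was in the water range. Bub1b, the gene of the checkpoint protein BubR1, had a log2 fold change of -0.48 (adjusted p = 0.109).

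The genes that act with the APC/C to end mitosis all had overlapping groups. Cdc20, its activator, was at 53.3, 53.5, 45.3, 54.4 and 68.6 CPM in water 1 to 5 and at 21.8, 50.02, 24.3, 36.02 and 43.5 CPM in α-KG 1 to 5 (log2 fold change -0.65 ± 0.22 SE, adjusted p = 0.0973). All α-KG libraries except α-KG 2 lay under every water library. For Ube2c, the ubiquitin-conjugating enzyme of the APC/C, the values were 113, 96.8, 51.4, 105 and 112 CPM in water and 26.6, 71.3, 57.4, 66.8 and 89.6 CPM in α-KG (log2 fold change -0.62 ± 0.29 SE, adjusted p = 0.190). Water 3 lay below 4 of the 5 α-KG libraries, and Ube2c was the 1 member with an unadjusted p above 0.05. Espl1, which encodes separase, the protease that opens cohesin, read 106, 115, 105, 121 and 142 CPM in water and 44.9, 104, 48.8, 84.6 and 107 in α-KG (log2 fold change -0.60 ± 0.24 SE, adjusted p = 0.139). Only α-KG 5 reached the water range, just above water 1 and water 3.

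The chromosomal passenger complex corrects faulty attachments and then moves to the midzone. Aurkb, its kinase, was at 66.1, 62.1, 60.4, 69.99 and 76.1 CPM in water 1 to 5 and at 27.96, 64.9, 27.4, 41.7 and 52.2 CPM in α-KG 1 to 5 (log2 fold change -0.64 ± 0.22 SE, adjusted p = 0.101). Only α-KG 2 overlapped the water group. Birc5, encoding survivin, which places the complex at centromeres, was at 122, 155, 107, 149 and 149.9 CPM in water 1 to 5 and at 31.5, 127, 38.8, 70.99 and 98.2 CPM in α-KG 1 to 5 (log2 fold change -0.90 ± 0.33 SE, adjusted p = 0.117). It was lowest in α-KG 1 and α-KG 3, while α-KG 2 lay above water 1 and water 3. Incenp, the scaffold that joins the kinase to the other subunits, read 195, 229.6, 206, 223 and 227 CPM in water and 82.01, 205, 101, 138 and 210.5 in α-KG (log2 fold change -0.56 ± 0.25 SE, adjusted p = 0.170). There α-KG 2 and α-KG 5 were in the water range. Cdca8, the gene of the subunit borealin, was at a log2 fold change of -0.86 (adjusted p = 0.0825).

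The 8 kinesins, motors that move along or reshape microtubules, had log2 fold changes of -0.75 to -0.50. Kif11, the motor that pushes the spindle poles apart, was at 167, 194, 162, 183 and 181 CPM in water 1 to 5 and at 56.6, 163, 72.6, 112 and 143 CPM in α-KG 1 to 5 (log2 fold change -0.70 ± 0.26 SE, adjusted p = 0.113). One α-KG library, α-KG 2, stood just above water 3. Kif4, a motor on chromosome arms, was at 73.2, 77.2, 60.04, 69.4 and 71.5 CPM in water 1 to 5 and at 23.1, 59.8, 27.6, 45.7 and 52.5 CPM in α-KG 1 to 5 (log2 fold change -0.75 ± 0.23 SE, adjusted p = 0.0820). The groups did not overlap, but water 3 and α-KG 2 differed by less than 1 CPM. Kif23, a subunit of the centralspindlin complex of the midzone, was at 81.9, 86.5, 70.5, 81.05 and 85.01 CPM in water 1 to 5 and at 32.9, 71.4, 37.96, 48.6 and 63.6 CPM in α-KG 1 to 5 (log2 fold change -0.67 ± 0.20 SE, adjusted p = 0.0735). Apart from α-KG 2, every α-KG library was below the water range. For Kif22, another motor on chromosome arms, values were 73.3, 77.5, 65.7, 77.5 and 84.6 CPM in water and 22.4, 67.2, 26.3, 50.6 and 60.7 CPM in α-KG (log2 fold change -0.74 ± 0.27 SE, adjusted p = 0.116). It overlapped in the same pair of libraries. Kif20b, a motor of late mitosis, read 36.3, 37.5, 34.96, 36.2 and 34.7 CPM in water and 19.7, 29.3, 20.6, 29.8 and 27.99 in α-KG (log2 fold change -0.50 ± 0.13 SE, adjusted p = 0.0612). Its groups did not overlap, and neither did those of Kif15, a motor that helps keep the spindle bipolar (log2 fold change -0.59). Kif20a and Kif2c, acting in cytokinesis and in microtubule disassembly, were at -0.69 and -0.65 (adjusted p = 0.0830 and 0.0906).

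The 8 centromere and kinetochore genes were all below 0, and all 8 had an unadjusted p under 0.05 (edgeR), against 11.5% of all genes. After adjustment over all genes tested 1 was called lower, where 0.344% of all genes were. Knstrn (chromosome 2, 118814003 to 118853957, build GRCm38) encodes kinastrin, a protein that binds microtubule ends at the kinetochore. It was at 27.02, 27.5, 24.3, 30.6 and 31.6 CPM in water 1 to 5 and at 15.4, 21.8, 15.3, 16.5 and 20.4 CPM in α-KG 1 to 5 (log2 fold change -0.65 ± 0.13 SE, adjusted p = 0.0280). The groups did not overlap, with water 3 the lowest of one group and α-KG 2 the highest of the other. The exons of Knstrn overlap those of Gm14091 on the other strand. The call held in 11 of 20 alternatives and was lost without any water library other than water 3, without α-KG 1, without α-KG 3 and without α-KG 4 (adjusted p = 0.0523 to 0.0941) and with an erythroid or a macrophage covariate (adjusted p = 0.0997 and 1.00).

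Cenpa, the histone H3 variant that marks centromeres, was at 85.4, 108, 89.9, 111 and 129 CPM in water 1 to 5 and at 55.1, 95.5, 53.96, 77.5 and 77.4 CPM in α-KG 1 to 5 (log2 fold change -0.54 ± 0.18 SE, adjusted p = 0.0977). Water 1 was the lowest water library, and α-KG 2 exceeded it and water 3. Cenpe, a kinetochore motor that carries chromosomes to the spindle equator, was at 172, 205, 153, 185 and 171 CPM in water 1 to 5 and at 46.9, 158, 59.7, 111 and 167 CPM in α-KG 1 to 5 (log2 fold change -0.71 ± 0.31 SE, adjusted p = 0.165). With α-KG 5 and α-KG 2 above water 3, its adjusted p was among the highest of the 50. Cenpf, a large protein of the outer kinetochore, read 208, 218, 172, 208 and 208 CPM in water and 52.4, 171, 68.7, 108 and 172 in α-KG (log2 fold change -0.83 ± 0.30 SE, adjusted p = 0.109). The groups were apart by under 1 CPM. Ndc80, which names the complex that grips microtubules, read 29.9, 36.2, 32.5, 38.5 and 39.5 CPM in water and 10.8, 31.8, 13.8, 23.1 and 24.4 in α-KG (log2 fold change -0.77 ± 0.25 SE, adjusted p = 0.0893). Here α-KG 2 was above water 1 alone. Its partners Nuf2 and Spc25 stood at -0.72 and -0.71 on the log2 scale, with adjusted p-values of 0.0829 and 0.128. Spc24, the fourth subunit, read 21.3, 23.4, 17.2, 18.9 and 24.6 CPM in water and 10.3, 22.9, 12.5, 15.6 and 16.3 CPM in α-KG (log2 fold change -0.44 ± 0.19 SE, adjusted p = 0.160). For Spc24, α-KG 2 was higher than 3 of the 5 water libraries.

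Over the 4 spindle assembly genes the median on the log2 scale was -0.84. Tpx2, which activates the Aurora kinase of the poles, was at 117, 109, 80.2, 114 and 109.7 CPM in water 1 to 5 and at 32.2, 86.3, 40.9, 65.6 and 76.7 CPM in α-KG 1 to 5 (log2 fold change -0.81 ± 0.25 SE, adjusted p = 0.0794). Water 3 lay apart from the other water libraries and under α-KG 2. Prc1, which bundles the microtubules of the midzone, was at 143, 193, 147, 165 and 191 CPM in water 1 to 5 and at 34.8, 140.1, 49.1, 97.98 and 114 CPM in α-KG 1 to 5 (log2 fold change -0.95 ± 0.32 SE, adjusted p = 0.101). Although its groups did not overlap, α-KG 2 lay just below water 1. For Hmmr, a microtubule-binding protein of the poles, the values were 70.7, 74.02, 59.7, 72.99 and 74.5 CPM in water and 17.4, 59.2, 24.5, 42.1 and 49.7 CPM in α-KG (log2 fold change -0.87 ± 0.28 SE, adjusted p = 0.0868). These groups were apart too, by under 1 CPM. Nusap1, which bundles microtubules near chromosomes, read 87.1, 73.3, 46.7, 82.5 and 76.6 CPM in water and 19.7, 59.7, 43.3, 56.9 and 50.5 in α-KG (log2 fold change -0.67 ± 0.26 SE, adjusted p = 0.133). Water 3 lay below 3 α-KG libraries, and the exons of Nusap1 overlap those of Oip5 on the other strand.

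The 3 cytokinesis genes were all below 0, and all 3 had an unadjusted p under 0.05 (edgeR), against 11.5% of all genes. After adjustment Ect2 alone was called lower, where 0.344% of all genes were. Ect2 (chromosome 3, 27097222 to 27153878) encodes the exchange factor that activates RhoA, so that the contractile ring forms at the equator. It was at 56.9, 55.3, 53.04, 57.7 and 56.6 CPM in water 1 to 5 and at 15.9, 42.2, 20.1, 32.03 and 35.1 CPM in α-KG 1 to 5 (log2 fold change -0.95 ± 0.22 SE, adjusted p = 0.0456). The water libraries lay within 53.0 to 57.7 CPM, and the highest α-KG library was at 42.2 CPM. The call held in 9 of 20 alternatives. It was lost without water 1, water 2, water 4 and water 5, and likewise without α-KG 3, α-KG 4 and α-KG 5 (adjusted p = 0.0586 to 0.122), with limma voom or a granulocyte precursor covariate (0.0509 and 0.0507), and with an erythroid or a macrophage covariate (0.0649 and 1.00). Racgap1, which binds Ect2 at the midzone, was at 98.6, 102, 76.03, 100.4 and 102 CPM in water 1 to 5 and at 36.6, 77.8, 40.03, 57.8 and 74.1 CPM in α-KG 1 to 5 (log2 fold change -0.74 ± 0.21 SE, adjusted p = 0.0689). Water 3 was the single low water library and lay just under α-KG 2. Anln, encoding the ring scaffold anillin, read 85.1, 88.2, 84.5, 88.9 and 97.4 CPM in water and 27.4, 77.9, 35.2, 57.97 and 72.8 in α-KG (log2 fold change -0.71 ± 0.25 SE, adjusted p = 0.105), with groups that did not overlap.

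Genes that shape chromosomes included the most abundant member. Mki67 (chromosome 7, 135689784 to 135716361) encodes Ki-67, the coat of mitotic chromosomes and a common marker of cycling cells. It was at 2644, 2630.1, 2103, 2716 and 2771 CPM in water 1 to 5 and at 487, 2076, 851, 1557 and 1803 CPM in α-KG 1 to 5 (log2 fold change -0.93 ± 0.37 SE, adjusted p = 0.134). The groups did not overlap, by a margin of under 30 CPM between water 3 and α-KG 2, and α-KG 1 held 18.9% of the water mean. Top2a, the topoisomerase that untangles sister DNA, was at 382, 403, 340.5, 373 and 415 CPM in water 1 to 5 and at 161, 353, 189.9, 273 and 302 CPM in α-KG 1 to 5 (log2 fold change -0.58 ± 0.22 SE, adjusted p = 0.125). Only α-KG 2 exceeded a water library. Smc2, a core subunit of condensin, was at 149.6, 135, 95.9, 135 and 133 CPM in water 1 to 5 and at 35.3, 114, 52.5, 77.8 and 89.02 CPM in α-KG 1 to 5 (log2 fold change -0.82 ± 0.27 SE, adjusted p = 0.0927). Water 3 and α-KG 2 overlapped. Ncapd2, a subunit of condensin I, read 302, 294, 274, 320.2 and 359 CPM in water and 112, 269, 116, 181 and 223 in α-KG (log2 fold change -0.78 ± 0.25 SE, adjusted p = 0.0840). Its groups were apart, and the small RNA gene Scarna10 lies within its exons on the same strand. Smc4, Ncapg and Ncaph, the other condensin genes, stood at -0.70, -0.77 and -0.75 on the log2 fold change scale (adjusted p = 0.103, 0.0898 and 0.0723), each with α-KG 2 alone inside the water range.

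Levels per length differed widely among the 50. Per kilobase of exon (GENCODE M21), Mki67 was at 256 ± 26.7 CPM in water (SD, n = 5) and at 135 ± 66.1 in α-KG. Next in water came Incenp at 49.97 ± 3.44 and Ncapd2 at 49.5 ± 5.11, then Ccnb2, Top2a, Ccna2, Birc5, Smc4 and Ube2c at 36.8 to 44.4, none of which stood apart from its neighbour beyond the SD. Plk1, Kif11, Smc2, Aurkb and Tpx2 formed a middle range of 22.7 to 24.5. Ttk was the lowest at 2.35 ± 0.277, below Cdc25c at 3.62 ± 0.195 and Mad2l1 at 3.79 ± 0.410. The length joins the exons of all annotated transcripts of a gene, 8390 bases for Mad2l1, and the order of the genes depends on that choice. Exons of 13 members overlap a gene on the opposite strand, with the strandedness of counting not given in the sources used here.

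Mitosis genes that are not among the 50 also stood mostly below 0. Of 110 such genes, all tested, 105 had log2 fold changes under 0 (median -0.52), where 48.3% of all genes lay below 0. Groups did not overlap, lower in α-KG, for 22 of them, against 2.01% of all genes. Of the 110, 2 fell over all genes tested and 0 rose, where 0.344% of all genes were called lower and 2.39% higher. Ckap2, a protein of spindle microtubules, had means ± SD over 5 libraries of 30.8 ± 3.58 CPM in water and 17.2 ± 5.44 in α-KG (log2 fold change -0.84 ± 0.20 SE, adjusted p = 0.0459). Cenpn, which reads the centromeric nucleosome, had 15.7 ± 3.05 CPM in water and 9.11 ± 2.20 in α-KG (log2 fold change -0.79 ± 0.19 SE, adjusted p = 0.0486). With every library in, 77 of the 110 were lower at an unadjusted p under 0.05 (edgeR), against 11.5% of all genes. In the 8 fits that left out a library other than water 3 or α-KG 2, 0 of the 110 were called. In those fits 53 to 79 were lower at an unadjusted p under 0.05 (edgeR), and 0% to 0.137% of all genes were called lower. By role, the other kinetochore genes had a median of -0.63 over 26 and the other spindle genes -0.62 over 28, where the kinesin gene Kif18a was at -0.87 ± 0.23 (adjusted p = 0.0592). The other checkpoint genes had a median of -0.62 over 8, with Zwilch at -0.68 and Bub3 at -0.56 (adjusted p = 0.0770 and 0.0771). Cohesin and condensin II genes had -0.51 over 14, with the cohesin protectors Sgo1 and Cdca5 at -0.88 and -0.72 (adjusted p = 0.0652 and 0.0577). Regulators of entry had -0.43 over 16, where the Cdk subunits Cks2 and Cks1b were at -0.81 and -0.76 (adjusted p = 0.0592 and 0.0628). Subunits and regulators of the APC/C, a complex that also works outside mitosis, had the median nearest 0, -0.21 over 18, with Ube2s at -0.73 and Anapc5 at -0.44 (adjusted p = 0.107 and 0.110).

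DNA replication genes stood at a median of -0.61 over 33, all below 0, where 48.3% of all genes lay below 0. By edgeR 0 were called and 28 were lower at an unadjusted p under 0.05, against 11.5% of all genes. DESeq2 called 19 of the 33 lower, against 4.31% of all genes. Slbp, which processes histone mRNA, and Gins3, of the replicative helicase, were at -0.67 ± 0.19 and -0.85 ± 0.24 (adjusted p = 0.0707 and 0.0708). Whether mitosis genes moved more than replication genes was not tested.

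**Figure D4:**
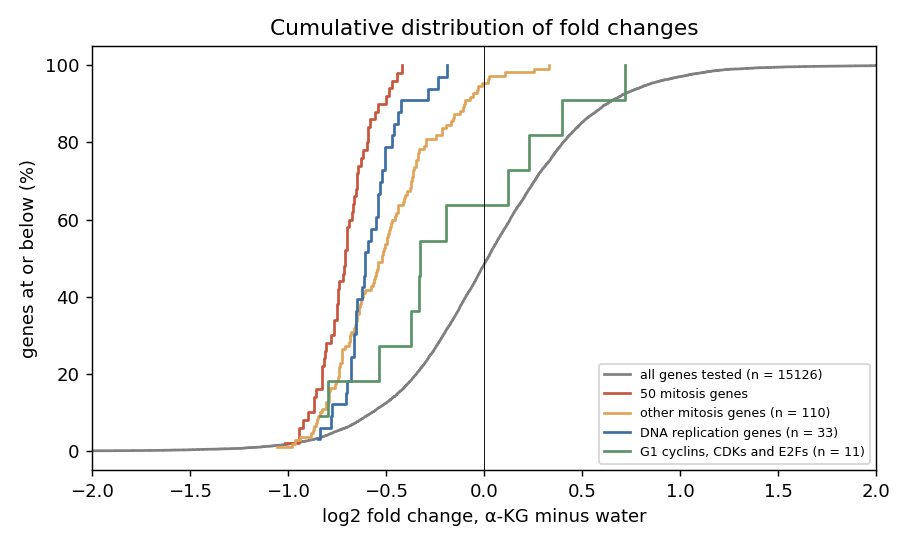
Cumulative share of genes by log2 fold change for all 15126 genes tested and 4 lists. The 50 mitosis genes lie between -1.02 and -0.42, the other mitosis and the replication genes have medians of -0.52 and -0.61, and the curve of all genes crosses 0 near its middle.

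Erythroid markers moved with the same libraries as the 50 genes. The list mean of the 50 genes on the log2(CPM + 1) scale was 6.27, 6.27, 5.96, 6.28 and 6.36 in water 1 to 5 and 4.73, 6.04, 5.04, 5.60 and 5.86 in α-KG 1 to 5. That of 15 erythroid markers was 8.83, 8.84, 7.91, 8.89 and 8.73 in water and 5.84, 8.61, 7.59, 8.05 and 8.61 in α-KG. Water 3, α-KG 1 and α-KG 3 were thus the low libraries of their groups in both lists. Summed levels of the erythroid markers ran from 8412 to 17087 CPM in water and from 2204 to 14934 CPM in α-KG. Of the 15 markers, 14 had log2 fold changes below 0 (median -0.73), where 48.3% of all genes lay below 0. By edgeR 0 were called, and 2 were lower at an unadjusted p under 0.05, against 11.5% of all genes. No erythroid marker was at 0 in any library. With the erythroid mean as a covariate, all 50 genes stayed below 0 with a median of -0.38, 40 had an unadjusted p under 0.05 and 0 were called (0.0198% of all genes, edgeR). The part of erythroid cells in the result was not tested beyond these values.

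Markers of granulocyte precursors, which also divide, did not follow the 50 genes. Their list mean was 4.67 to 5.34 in water and 4.74 to 5.50 in α-KG, their summed levels 324 to 605 and 375 to 645 CPM, and their median log2 fold change -0.02 over 8. With this mean as a covariate the median of the 50 was -0.72 and 1 was called (0.443% of all genes). Macrophage and monocyte markers moved the other way, with 10 of 10 tested genes of each list above 0, and 5 macrophage and 7 monocyte genes rose at an adjusted p under 0.05 (edgeR), where 2.39% of all genes were called higher. Limma voom called 4 of each list higher, and 225 of all 15126 genes. In the edgeR fits that left out water 1, water 2, water 4 or α-KG 4, 0 of either list and 0 of all genes were called. In those 4 fits 9 or 10 of 10 in each list had an unadjusted p under 0.05. Other lists also lay above 0, with 12 of 12 T and NK cell markers (median 0.77, 2 called), 8 of 8 stem and progenitor markers (median 0.31, 1 called), 7 of 7 B cell markers (median 0.58, 0 called, 2 at an unadjusted p under 0.05) and 5 of 5 basophil and mast cell markers (median 0.75, 0 called, 2 at an unadjusted p under 0.05). Over all genes, 16.3% were higher at an unadjusted p under 0.05 (edgeR). The T and NK and the stem and progenitor calls were lost in the same 4 fits and in some others. Summed B cell markers stood at 319 CPM in α-KG 1, the library lowest in the 50 genes, and at 59.2 to 129 CPM in the other α-KG libraries. The summed macrophage markers ran from 53.8 to 104 CPM in water and from 108 to 194 CPM in α-KG, with Marco at 0 in all 10 libraries and Timd4 at 0 in some. The macrophage mean itself separated the groups, at 2.08 to 2.79 against 2.83 to 3.46, and with it as a covariate the median of the 50 genes was -0.11, with 37 below 0 and 0 called (0% of all genes, edgeR; 0 at an unadjusted p under 0.05). The part of macrophages in the result was not tested beyond these values.

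**Figure D5:**
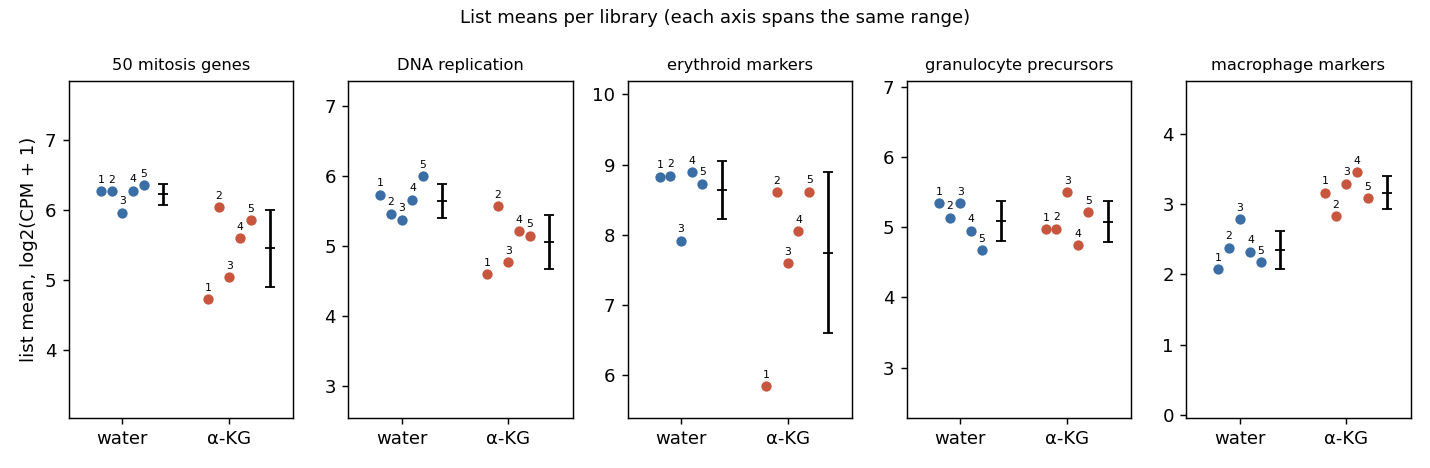
Mean of log2(CPM + 1) over each list in every library, with the library number above each point and the group mean ± SD beside them, on axes of equal span. The 50 mitosis genes, replication genes and erythroid markers are lowest in α-KG 1. The granulocyte precursor markers overlap between the groups, and the macrophage markers are higher in every α-KG library than in any water library.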

How the data were processed

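RNA from 10 bone marrow libraries, 5 per group, was depleted of ribosomal RNA with RNase H and sequenced on an Illumina instrument, per the labels' protocols. The submitters' processing notes name bcl2fastq, DRAGEN and the build GRCm38, with quantifier, annotation and strandedness not given in the sources used here. Expected counts per gene, not scaled between libraries, were deposited by the authors, and since 10.28% were not whole numbers they were rounded. Genes were kept by filterByExpr (minimum count 10, minimum total 15). The test was the two-sided quasi-likelihood F test of edgeR 4.0.16 in R 4.3.3, with TMM scaling, robust dispersion and Benjamini-Hochberg adjustment over 15126 genes at 0.05, which was also tested on simulated data. Standard errors were taken as the size of the log2 fold change over the root of F. The common biological coefficient of variation was 0.254. Depth and 5 libraries a group limit the precision of every value.

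Alternatives were other scalings and filters, DESeq2 1.42.0, limma voom 3.58.1, 3 marker list means as covariates and each library left out. No pairing is given. The members, the lists and the rule for named genes (per-library values for a fixed set of members and for the lowest and highest fold change of each role, and the 2 smallest p-values of every other cell cycle list) were chosen with earlier results of these data known. Gene positions came from GENCODE M21 (GRCm38) and promoters from RefSeq, where the last 30 bases of 37 of 43 windows lay in a transcript of their gene. Ahsp and Azu2 of the marker lists were not matched in the table. A gene that the naming rule picks is not reported here.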

Additional observations from a re-analysis of the deposited data

Results flagged for a closer look

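In all, 8 of the 50 genes had 1 library far from the other 4 of its group by Dixon's criterion at the 95% level, each time water 3 as the low one. Water 3 was at 33.8 CPM for Aurka, where the other water libraries were at 47.2 to 52.4. Ube2c, the APC/C enzyme, was at 51.4 CPM against 96.8 to 113. The passenger complex gene Cdca8 was at 59.7 CPM against 81.9 to 85.7, and the kinetochore gene Cenpf at 172 CPM against 208 to 218. For the spindle genes Tpx2 and Hmmr the values were 80.2 and 59.7 CPM, against 109 to 117 and 70.7 to 74.5. Racgap1 was at 76.0 CPM against 98.6 to 102, and Mki67 at 2103 CPM against 2630.1 to 2771. The summed level of the 50 genes was flagged as well, at 5869 CPM in water 3. Chance flags about 1 in 20 groups, 100 groups were examined for single genes, and genes that vary together are flagged together. In the α-KG group, where the spread was larger, no library met the criterion for any of the 50 genes.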

How the results depend on the processing

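The direction held for all 50 genes in 19 of 20 alternatives. The exception was the macrophage covariate, whose values separate the groups: 13 genes turned positive there, at 0.15 for Ccna2, 0.0159 for Ccnb2, 0.0855 for Foxm1, 0.23 for Plk1, 0.11 for Aurka, 0.13 for Bub1, 0.0279 for Bub1b, 0.0832 for Mad2l1, 0.0066 for Cdc20, 0.33 for Ube2c, 0.0376 for Kif20a, 0.0783 for Kif2c and 0.18 for Spc24. With it, the median of the 50 genes was -0.11 and 0 had an unadjusted p under 0.05. The number of members called lower was 2 and depended on the setting: 44 with library totals alone, 8 without a filter, 34 with DESeq2, 1 with limma voom, 0 with the erythroid, 1 with the granulocyte precursor and 0 with the macrophage covariate, and 0 to 42 as each library was left out. For the 110 other mitosis genes the number called was 51 with library totals alone, 12 without a filter, 42 with DESeq2, 1 with limma voom, 0 with the erythroid or the macrophage covariate, and 0 to 60 as each library was left out. Over all genes, 6.89% were called lower with library totals alone, 0.479% without a filter, 4.31% with DESeq2 and 0.278% with limma voom. That share was 0.0198% with the erythroid, 0.443% with the granulocyte precursor and 0% with the macrophage covariate. As each library was left out it was 0% to 6.97%. Groups of 15 members did not overlap (2.01% of all genes), which became 39 with library totals alone (5.32%). As each library was left out the number was 14 to 42, the highest without water 3, followed by 36 without α-KG 2. In those fits 2.23% to 6.97% of all genes were apart in this direction. Library totals alone moved the median of all genes to -0.22, with the median of the 50 at -1.005, so relative to all genes the shift was of similar size. The cause of these differences was not tested. No paired analysis was possible because no replicate number occurs in both groups' titles.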

Other observations

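Genes of the G1 phase did not all lie on the side of the 50 mitosis genes. Of 11 cyclins, Cdks and E2F factors that act before S phase, 7 had log2 fold changes below 0 and 4 above (median -0.33). Over all genes, 48.3% lay below 0. At an unadjusted p under 0.05 (edgeR), 5 of the 11 were lower and 2 higher, against 11.5% and 16.3% of all genes. After adjustment 0 were called lower and 1 higher, where 0.344% of all genes were called lower and 2.39% higher. Ccnd1, the gene of cyclin D1, rose from 5.82 ± 0.991 CPM in water to 9.62 ± 1.61 CPM in α-KG, as means ± SD of 5 libraries (log2 fold change 0.72 ± 0.16 SE, adjusted p = 0.0364). It was higher in 5 of 5 α-KG libraries than in any water library, and its log2 fold change was 0.62 to 0.81 as each library was left out. The call was lost with library totals in place of TMM factors (adjusted p = 0.353), with the erythroid and the macrophage covariate (0.114 and 1.00), and without any library other than water 3 and α-KG 2 (0.0586 to 0.122). The transcription factor gene E2f3 was at -0.33 ± 0.10 (adjusted p = 0.0756), with α-KG libraries that all lay below the water libraries.

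Genes that restrain the cycle gave 0 calls over 14 tested (edgeR), where 0.344% of all genes were called lower and 2.39% higher. At an unadjusted p under 0.05 (edgeR), 4 were lower and 0 higher, against 11.5% and 16.3% of all genes. Their median log2 fold change was -0.24. Rbl1, which encodes the pocket protein p107, and Cdkn2d, the gene of an inhibitor of Cdk4 and Cdk6, were at -0.47 and -0.50 (adjusted p = 0.105 and 0.147). Cdkn1c, Cdkn2a and Cdkn2b did not pass the filter on low counts.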
